A study of Homo sapiens with 8 samples.

Results

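Gene expression was compared between 2 derivatives of U2OS, a human osteosarcoma line, both given a control siRNA (siNC): an AsiSI line that had received 4-hydroxytamoxifen (4-OHT) and U2OS-Flp-In-TREx (Flp-In). All genes that passed a count filter entered the comparison, 43321 of the 80311 in the table. The series has 8 total RNA libraries in 4 groups of 2, each derivative with siNC or with siMePCE, which targets the methylphosphate capping enzyme of 7SK RNA. The comparison rests on the 2 libraries of AsiSI siNC and the 2 of Flp-In siNC, and the 4 siMePCE libraries served as a second look.

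Both groups were transfected at 0 h and again at 48 h and lysed at 96 h. AsiSI cells (U2OS AiD-DiVA AsiSI-ER) had 300 nM 4-OHT for 4 h, from 92 h on, while 4-OHT is not stated for Flp-In. The lines were also kept under different selection drugs, Zeocin and Blasticidin for Flp-In and G418 for AsiSI. Line, drug and 4-OHT differed together and cannot be told apart in any result here. Each derivative is a single established line, and separate cultures for the replicates are not stated in the labels, so the p-values speak only of how far these libraries spread.

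AsiSI is a restriction enzyme with a recognition sequence of 8 bases. In AsiSI-ER lines it is fused to the hormone-binding domain of the estrogen receptor, and 4-OHT brings the fusion into the nucleus, where it cuts the genome. Breaks are sensed by the kinases ATM, ATR and DNA-PK, repaired by end joining or homologous recombination, and signalled to p53. U2OS is a mesenchymal tumour line with a rearranged genome, and derivatives of such lines can differ in the number of copies of a chromosome segment as well as in gene regulation.

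The 4 siNC libraries held between 41431776 and 53695626 counts, of which mitochondrial genes took 5.23% to 5.91%. In the siMePCE libraries that share was 8.24% to 10.6%. Neither pair of replicates was a copy, since the chi-square statistic over its degrees of freedom came to 4.19 for Flp-In siNC and to 10 for AsiSI siNC. Levels are given in CPM, counts scaled to a common library size with TMM, and differences as log2 fold changes of AsiSI over Flp-In with their standard error (SE). A gene was called at a Benjamini-Hochberg adjusted p under 0.05 in edgeR's quasi-likelihood test over all 43321 genes. Where the libraries of the 2 groups are said to lie apart, the genes were mostly chosen as called. Such statements describe these genes and add no support to the calls. Each gene was counted over its whole interval, introns included and apparently without regard to strand, so reads of overlapping genes cannot be told apart. Overlap is given below for genes whose overlapping gene had at least 0.5 times their counts.

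MEPCE (ENSG00000146834, hg19 chromosome 7, 100025945 to 100031749), which siNC does not target, had 39.9 and 40.1 CPM in Flp-In and 29.3 and 29.3 CPM in AsiSI. The 2 groups did not overlap, and MEPCE was lower in AsiSI, with a log2 fold change of -0.45 (SE 0.14, edgeR adjusted p = 0.0169). The call was lost without any 1 of the 4 siNC libraries (adjusted p from 0.0723 to 0.115), and an overlapping gene had 1.05 times its counts. RN7SK, the 7SK RNA that MePCE caps, had 11312 and 10908 CPM in Flp-In and 7744 and 7965 CPM in AsiSI and was 1.41-fold lower in AsiSI (adjusted p = 2.94e-06), with an overlapping row named 7SK at 1 times its counts. In the siMePCE libraries the log2 fold changes between the lines were -0.78 for MEPCE and -0.49 for RN7SK.

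ESR1 (ENSG00000091831, hg19 chromosome 6, 151977826 to 152450754), the estrogen receptor gene whose hormone-binding part is carried by AsiSI-ER, had 555 and 564 counts in Flp-In and 2900 and 3164 in AsiSI. That is 12.9 and 13.5 CPM in Flp-In and 60.4 and 60.2 CPM in AsiSI, with no overlap between the groups. ESR1 was 4.56-fold higher in AsiSI (log2 SE 0.11, edgeR adjusted p = 4.50e-12) and differed more in the siMePCE libraries, by a log2 fold change of 3.34. The counts do not show which part of ESR1 the reads came from. SYNE1, which overlaps ESR1, had 8.99 times its counts and was itself higher, with a log2 fold change of 0.97, so the part of SYNE1 in the ESR1 value was not tested.

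The lines differed at 12777 genes, 29.5% of those tested, with 6225 higher in AsiSI (14.4%) and 6552 lower (15.1%). Among 17341 protein-coding genes, 41.1% were called, 3073 higher (17.7%) and 4046 lower (23.3%). The larger number of falls among coding genes depended on scaling: with TMM computed on coding genes alone, 3723 were higher and 3689 lower. Most called differences were moderate. A log2 fold change of at least 3 in either direction was reached by 625 called genes, 387 higher and 238 lower in AsiSI. The share of genes called grew with the level, from 5.1% in the lowest of 10 equal classes by mean CPM to 49.5% in the highest. Of 4416 long intergenic noncoding RNAs, 17.4% were higher and 9.56% lower.

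MAGEC1, a cancer-testis antigen gene on chromosome X that is normally silent outside the germ line, had 2 and 2 counts in Flp-In and 2696 and 3027 in AsiSI (ENSG00000155495, hg19 chromosome X, 140991680 to 140997160). It went from 0.0466 and 0.0479 CPM in Flp-In to 56.2 and 57.6 CPM in AsiSI, a ratio of 1204-fold, with a 95% counting interval of 470.2 to 4422. SERPINB7, a serine protease inhibitor of skin, rose from 0.513 and 0.479 CPM in Flp-In to 25 and 26.2 CPM in AsiSI (log2 fold change 5.68, SE 0.20). Both genes were at low counts in Flp-In. FAP, the fibroblast activation protease, rose from 1.54 and 1.24 CPM in Flp-In to 51.2 and 31.4 CPM in AsiSI (log2 fold change 4.88). The hair keratin gene KRT75 rose from 1.82 and 1.91 CPM in Flp-In to 40.8 and 54.9 CPM in AsiSI, and KRT34, another hair keratin gene, rose from 2.89 and 2.7 CPM in Flp-In to 30.4 and 33.8 CPM in AsiSI. In these genes the lower AsiSI library lay many times above the higher Flp-In library.

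ADAMTSL1, a matrix protein of the ADAMTS family, rose from 7.93 and 10.5 CPM in Flp-In to 204 and 207 CPM in AsiSI (log2 fold change 4.48, SE 0.13). ADAMTS1, a protease that cleaves proteoglycans, rose from 1.49 and 1.34 CPM in Flp-In to 16.7 and 22.2 CPM in AsiSI. PAPPA2, a protease that cleaves IGF-binding proteins, rose from 4.62 and 5.55 CPM in Flp-In to 52.1 and 75.5 CPM in AsiSI. The neutrophil chemokine CXCL8 went from 5.92 and 4.98 CPM in Flp-In to 82.8 and 42.2 CPM in AsiSI, so its AsiSI libraries differed from each other by more than its Flp-In libraries did. CFAP58, a gene of cilia and flagella, ADGRG4, an adhesion receptor gene, and CRACDL had log2 fold changes of 4.29, 3.74 and 3.43. These 12 largest rises were taken among called coding genes with a mean of at least 5 CPM and groups that do not overlap. Genes with an overlapping gene at 0.5 or more of their counts were left out. The edgeR adjusted p of the 12 ran from 2.90e-16 for MAGEC1 to 7.79e-11 for CRACDL.

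The deepest falls began with PLAAT5 (ENSG00000168004, hg19 chromosome 11, 63228876 to 63258666), a phospholipid-modifying enzyme, at 728 and 660 counts in Flp-In and 4 and 4 in AsiSI, lower by a ratio of 206-fold, with a 95% counting interval of 104 to 478. HOXD10, a limb-patterning homeobox gene, fell from 15 and 15.4 CPM in Flp-In to 0.25 and 0.19 CPM in AsiSI (log2 fold change -6.10, SE 0.26, edgeR adjusted p = 3.00e-13). CYP27A1, the sterol 27-hydroxylase of bile acid synthesis, fell from 18.8 and 20.2 CPM in Flp-In to 0.5 and 0.456 CPM in AsiSI. All 3 genes were low in AsiSI. RAC2, a GTPase of blood cells, fell from 22 and 23.2 CPM in Flp-In to 1.1 and 1.29 CPM in AsiSI, and CSF2RA, the GM-CSF receptor alpha chain, fell from 10.1 and 9.17 CPM in Flp-In to 1.04 and 1.12 CPM in AsiSI. NLRP1, an inflammasome sensor, fell from 31.6 and 30.3 CPM in Flp-In to 4.48 and 3.84 CPM in AsiSI. ABCG1, a cholesterol exporter, fell from 14 and 9.96 CPM in Flp-In to 1.13 and 1.24 CPM in AsiSI. These were genes at moderate level in Flp-In and low level in AsiSI. CDCP1, ATP6V0A1, QPRT, XKR6 and MIR9-1HG completed the 12 largest falls under the same limits, with log2 fold changes of -2.81, -2.79, -2.69, -3.79 and -2.72. CDCP1 is a transmembrane substrate of Src kinases, ATP6V0A1 a subunit of the proton-pumping ATPase, and QPRT an enzyme of NAD synthesis from tryptophan.

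**Figure D1:**
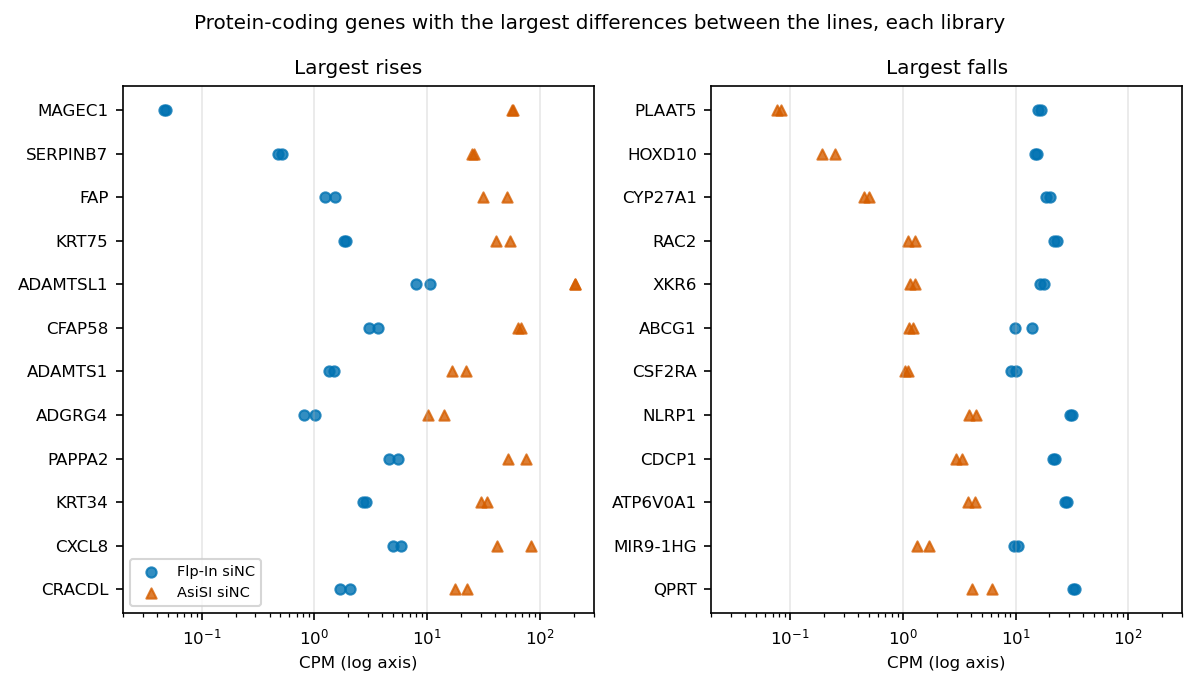
CPM of the 12 largest rises (left) and 12 largest falls (right) among protein-coding genes in each of the 4 siNC libraries, on a log axis, with circles for Flp-In and triangles for AsiSI. The genes were chosen among those called, with a mean of at least 5 CPM and groups that do not overlap. Genes with an overlapping gene at 0.5 or more of their counts were left out. MAGEC1 spans the widest gap, from 0.0466 to 57.6 CPM.

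Genes expressed in both lines, at 5 CPM or more in every siNC library, gave a second set of differences. ADAM12, a metalloprotease of mesenchymal cells, rose from 57.3 and 60.9 CPM in Flp-In to 373 and 454 CPM in AsiSI, and CREB5, a transcription factor of the CREB family, rose from 64 and 65.6 CPM in Flp-In to 363 and 400.1 CPM in AsiSI. IL1RAPL1, a synaptic receptor-like gene, rose from 16 and 15.3 CPM in Flp-In to 109 and 115 CPM in AsiSI. OTOGL, CHRNA9, UPP2 and FAT3 rose by log2 fold changes of 2.74, 2.64, 2.51 and 2.43. CHRNA9 is a nicotinic receptor subunit, UPP2 a uridine phosphorylase and FAT3 an atypical cadherin. Among the falls, the zinc finger gene ZNF283 went from 91.8 and 93.8 CPM in Flp-In to 17.8 and 17.9 CPM in AsiSI and PKP2, a desmosome protein, went from 82.6 and 80.7 CPM in Flp-In to 20.2 and 16 CPM in AsiSI. UNC13D, a protein of granule exocytosis, fell from 70.5 and 70.4 CPM in Flp-In to 15 and 13.3 CPM in AsiSI, and CDC42EP4, an effector of CDC42, fell from 73.1 and 72.2 CPM in Flp-In to 18.4 and 17 CPM in AsiSI. BMP4, a bone morphogenetic protein, fell from 34.1 and 36.8 CPM in Flp-In to 8.08 and 7.11 CPM in AsiSI. CACNA1H, a T-type calcium channel, KLHL13, a ubiquitin ligase adaptor, and PDE9A, a cGMP phosphodiesterase, fell, with log2 fold changes of -2.18, -2.09 and -2.09. Outside the coding genes, LINC01029 rose from 0.769 and 1.24 CPM in Flp-In to 106 and 111 CPM in AsiSI and LINC02663 from 0.326 and 0.335 CPM in Flp-In to 10.0 and 10.2 CPM in AsiSI, whereas ENSG00000260126 fell from 52.1 and 47 CPM in Flp-In to 0.375 and 0.304 CPM in AsiSI and ENSG00000308604 from 41.2 and 39.6 CPM in Flp-In to 1.44 and 1.18 CPM in AsiSI.

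Many of the called genes lay together on the chromosomes. Protein-coding genes were divided, in hg19 order, into 336 runs of 50 consecutive genes, the last run of a chromosome also taking the genes left over. Run medians of the log2 fold change went from -1.48 to 0.86, around a median of -0.04, with 52 runs at or under -0.3 and 40 runs at 0.3 or more. The siMePCE libraries, which share no library with the siNC comparison, were set beside these runs: 51 of the 52 low runs and 27 of the 40 high runs were past the same value there. Across the 336 runs the medians under the 2 siRNAs had a Pearson r of 0.954, a description of points that share cell lines and genes.

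Chromosome 16 stood lowest, with 385 of 750 coding genes lower in AsiSI (51.3%), 20 higher (2.67%) and a median log2 fold change of -0.46 (-0.52 under siMePCE). Of its 15 runs, 11 were at or under -0.3. The run at the start of its short arm (96407 to 1525078, from POLR3K to CLCN7) had 43 of 50 genes lower and none higher, with a median of -1.48 (-1.56 under siMePCE). CACNA1H lies in that run. The next 2 runs had 45 and 39 of 50 lower, with medians of -0.84 and -0.78. On chromosome 21, 39.3% of 168 coding genes were lower, and the last run (42676139 to 48085597, from FAM3B to PRMT2) had 44 of 68 lower. ABCG1, PDE9A, COL6A1 and COL18A1 lie there. On chromosome 8, 38.9% of 594 coding genes were lower.

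Chromosome 7 was divided. Its first 4 runs, from 192969 to 38971994, were higher in AsiSI, with 40, 38, 37 and 30 of 50 genes called higher and medians of 0.69, 0.85, 0.86 and 0.53. Run 10 of the chromosome (99195890 to 100487336) had 38 of 50 genes lower and a median of -0.90 (-1.05 under siMePCE). MEPCE lies in that run together with the helicase subunit gene MCM7 and the ephrin receptor gene EPHB4. The first run of chromosome 9 (14475 to 16410988) had 40 of 50 genes higher and a median of 0.74, and the second of chromosome 22 (20783528 to 24989175) had 32 of 50 higher and a median of 0.74. In the runs at or under -0.3, 55.5% of 2721 coding genes were lower, and in those at 0.3 or more, 52.4% of 2049 were higher. The other runs had 15.2% of 12556 genes higher and 19.5% lower. These shares describe runs chosen on the same values. The number of copies of these segments in either line was not tested.

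**Figure D2:**
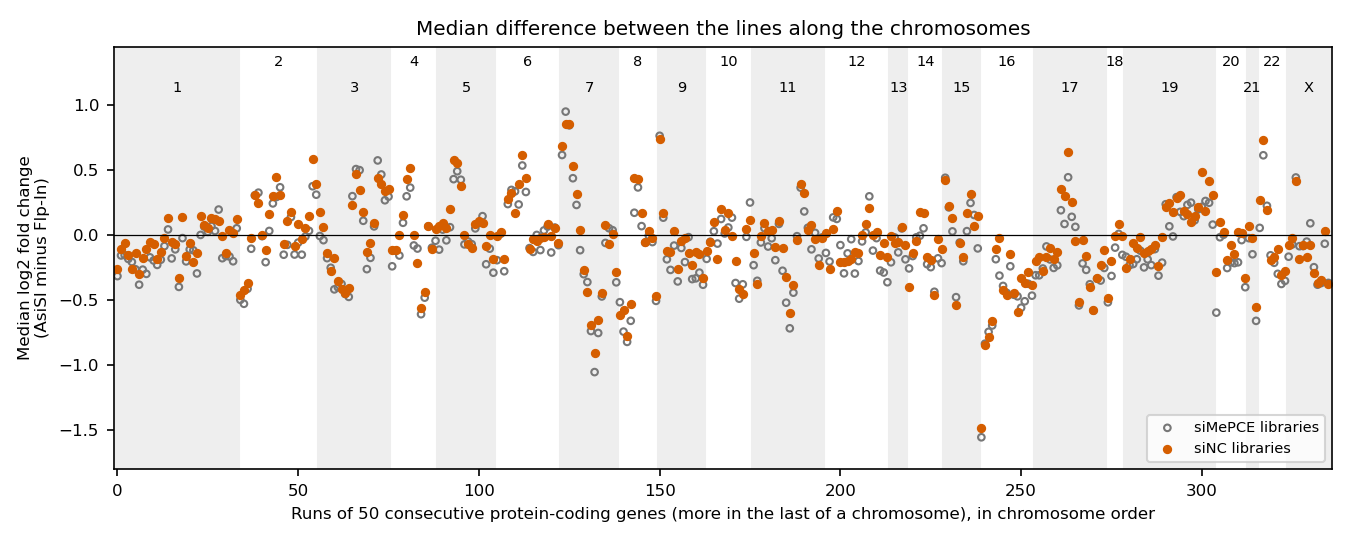
Median log2 fold change (AsiSI minus Flp-In) of each run of consecutive protein-coding genes, in chromosome order, with filled points for the siNC libraries and open points for the siMePCE libraries. The first run of chromosome 16 is lowest at -1.48, and the open points follow the filled ones along the genome.

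The p53 pathway was examined next, since breaks activate p53. Of 32 measured p53 targets, 13 were higher (40.6%) and 4 lower, against 17.7% and 23.3% of coding genes, and the list median was 0.32 against 0.01 over all genes. CDKN1A (ENSG00000124762, hg19 chromosome 6, 36644237 to 36655174), the p21 inhibitor of cyclin-dependent kinases, rose from 80.2 and 85.4 CPM in Flp-In to 189.6 and 193 CPM in AsiSI (2.31-fold, log2 SE 0.09, edgeR adjusted p = 1.30e-09). SESN2, a stress-induced inhibitor of mTORC1, rose from 39.2 and 44.2 CPM in Flp-In to 80.7 and 93 CPM in AsiSI, and ZMAT3, an RNA-binding protein, rose from 99.1 and 92.6 CPM in Flp-In to 173 and 159.9 CPM in AsiSI. In these 3 genes every AsiSI library lay above every Flp-In library. PLK2, a polo-like kinase, rose by a log2 fold change of 0.62, and cyclin G1 (CCNG1) fell, with a log2 fold change of -0.68. In the siMePCE libraries 8 of the 13 rises and 2 of the 4 falls were called again. Leaving out Flp-In siNC replicate 1 or the first AsiSI siNC library gave 2 falls. CDKN1A lies in a run with a median of 0.62. With the median of each gene's run taken away, the list median was 0.29.

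Immediate early genes, which are induced within minutes by growth factors and stress, had 15 of 35 measured members higher (42.9%) and 5 lower, with a median of 0.23. Without either Flp-In siNC library or AsiSI siNC replicate 2, 3 were lower. DUSP1, the phosphatase that switches off MAP kinases, rose from 22.7 and 22.2 CPM in Flp-In to 94.2 and 95.3 CPM in AsiSI (4.22-fold; an overlapping gene had 1.05 times its counts). ATF3, a stress transcription factor, rose from 9.05 and 9.67 CPM in Flp-In to 27 and 29.7 CPM in AsiSI. KLF6 rose from 39.6 and 38.6 CPM in Flp-In to 94.6 and 91.1 CPM in AsiSI and FOSL2, an AP-1 subunit, from 134 and 147 CPM in Flp-In to 207 and 226 CPM in AsiSI, but under siMePCE their log2 fold changes were 0.03 and -0.22 (adjusted p = 0.865 and 0.0552). The nuclear receptor NR4A3 rose by a log2 fold change of 1.71, with an overlapping gene at 2.33 times its counts. Of the 15 rises, 11 were called again under siMePCE.

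The unfolded protein and integrated stress response, in which ATF4 drives amino acid and redox genes, had 12 of 21 measured members higher (57.1%) and none lower (1 without AsiSI siNC replicate 2), with a median of 0.34. ATF3 and SESN2 belong to this list too. CHAC1, which degrades glutathione, rose from 1.54 and 1.6 CPM in Flp-In to 5.25 and 8.56 CPM in AsiSI, and SLC7A11, the cystine transporter, rose from 88.1 and 83.5 CPM in Flp-In to 162 and 188 CPM in AsiSI (overlap ratio 0.559). PPP1R15A, which restarts translation by dephosphorylating eIF2 alpha, rose from 16.8 and 17.1 CPM in Flp-In to 24.4 and 30.0 CPM in AsiSI. Under siMePCE 9 of the 12 rises were called again.

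Genes that sense and repair breaks were called no more often than coding genes at large (41.1%). Of 27 members of the double-strand break response, 3 were higher and 5 lower (29.6% called). With TMM on coding genes 6 were higher, and without Flp-In siNC replicate 1 or 2, 2 and 3 were lower. TP53BP1, which steers breaks to end joining, fell from 129 and 135 CPM in Flp-In to 57.7 and 64.4 CPM in AsiSI (log2 fold change -1.12, adjusted p = 1.10e-08 in edgeR; -1.08 under siMePCE), with an overlapping gene at 0.607 times its counts. RBBP8, which encodes the end-resection factor CtIP, fell from 114 and 115 CPM in Flp-In to 81 and 74.4 CPM in AsiSI. In homologous recombination 2 of 24 were higher and 6 lower (33.3% called; median -0.19), with 3 lower without either Flp-In siNC library or AsiSI siNC replicate 2. RPA3, a subunit of the single-strand binding protein, was higher by a log2 fold change of 0.79, in a run with a median of 0.85 and with an overlapping gene at 2.09 times its counts. RAD52, which anneals single strands, was lower, at -0.66. RAD51B, a recombination factor, had a log2 fold change of -0.32 under siNC and of 0.42 under siMePCE, opposite in sign, and lost its siNC call without Flp-In siNC replicate 1 (adjusted p = 0.0821).

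In end joining 5 of 19 members were higher (26.3%) and 1 lower (31.6% called). XRCC5, the Ku80 subunit that binds broken ends, rose from 279 and 269 CPM in Flp-In to 391 and 390.5 CPM in AsiSI, and PRKDC, the catalytic subunit of DNA-PK, rose from 687 and 655 CPM in Flp-In to 901 and 818 CPM in AsiSI. XRCC4, the partner of ligase IV, rose by a log2 fold change of 0.55, with an overlapping gene at 0.971 times its counts. Runs at 0.3 or more held 3 of the 5 rises, and the 1 fall lies in a run at or under -0.3. The list median was 0.19, and -0.05 with run medians taken away. With TMM on coding genes, 9 members were higher.

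Proliferation genes were counted by phase. Of 37 replication genes and E2F targets, 12 were lower (32.4%, against 23.3% of coding genes) and 4 higher (10.8%, against 17.7%), with a median of -0.16. All 12 falls were called again under siMePCE. Of the 12 falls 6 lie in runs at or under -0.3, and of the 4 rises 2 lie in runs at 0.3 or more. With run medians taken away the list median was -0.12. MCM7, a subunit of the replicative helicase, fell from 125 and 123 CPM in Flp-In to 51.3 and 53.3 CPM in AsiSI, in the chromosome 7 run with a median of -0.90. TYMS, thymidylate synthase, fell from 346 and 323 CPM in Flp-In to 186 and 162 CPM in AsiSI, E2F2, an activating E2F, fell from 36.5 and 35 CPM in Flp-In to 15 and 14.8 CPM in AsiSI and POLA2, a subunit of DNA polymerase alpha, fell from 57.8 and 57.4 CPM in Flp-In to 34 and 33.6 CPM in AsiSI. Overlapping genes had 0.766, 2.41 and 1.34 times the counts of TYMS, E2F2 and POLA2. Without Flp-In siNC replicate 1, 7 members were lower, and 2 were higher without either Flp-In siNC library or the first AsiSI siNC library. Of 32 G2 and mitosis genes, 8 were lower (25%) and 5 higher (15.6%), near the 23.3% and 17.7% of coding genes, with a median of -0.12. With TMM on coding genes, or without AsiSI siNC replicate 2, 8 were higher, and without any 1 of the other 3 siNC libraries 3 were. The cytokinesis regulator ECT2 rose from 87.5 and 80.9 CPM in Flp-In to 242 and 194 CPM in AsiSI, while cyclin A2 (CCNA2) fell from 147 and 149 CPM in Flp-In to 101 and 96.8 CPM in AsiSI. The kinetochore motor CENPE and the centromeric histone CENPA fell, with log2 fold changes of -0.58 and -0.57. Overlapping genes had 0.565 and 0.724 times the counts of CCNA2 and CENPA. Of the 8 G2 and mitosis falls 4 lie in runs at or under -0.3, and of the 5 rises 2 lie in runs at 0.3 or more. The median of this list was -0.10 with run medians taken away.

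Interferon-stimulated genes, the antiviral program that type I interferon turns on, were lower in AsiSI. Of 37 measured members 24 were lower (64.9%) and none higher, and the list median was -1.05. OAS3, a sensor of double-stranded RNA, fell from 30.3 and 28.9 CPM in Flp-In to 10.3 and 9.72 CPM in AsiSI (log2 fold change -1.56, SE 0.14, edgeR adjusted p = 4.26e-08). IFIH1, the RNA sensor MDA5, fell from 12.2 and 7.47 CPM in Flp-In to 3.5 and 2.22 CPM in AsiSI. IFITM3, which blocks viral entry, fell from 28.2 and 24.8 CPM in Flp-In to 10.2 and 12.1 CPM in AsiSI. In these 3 genes both Flp-In libraries lay above both AsiSI libraries. USP18, which removes ISG15 from proteins, fell from 2.56 and 2.78 CPM in Flp-In to 0.208 and 0.38 CPM in AsiSI, and IFI35 and IFI6 fell, with log2 fold changes of -3.26 and -1.91. Overlapping genes had 1.09, 1.01 and 0.61 times the counts of OAS3, IFITM3 and IFI6. Of the 37 genes, 6 lie in runs at or under -0.3, of which 5 were lower, and with run medians taken away the list median was -0.94. Under siMePCE the list median was -0.48, and 12 of the 24 falls were called again.

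Antigen presentation followed. Of 16 members 10 were lower (62.5%) and 1 higher (none without any 1 of Flp-In siNC replicates 1 and 2 and AsiSI siNC replicate 1), with a median of -0.68. B2M (ENSG00000166710, hg19 chromosome 15, 45003556 to 45011049), the light chain of every MHC class I molecule, fell from 229 and 229.6 CPM in Flp-In to 90.8 and 92.9 CPM in AsiSI (2.49-fold lower, adjusted p = 3.26e-09 in edgeR), in a run with a median of -0.53. NLRC5, the activator of class I transcription, fell from 27 and 28.2 CPM in Flp-In to 8.54 and 7.15 CPM in AsiSI, on chromosome 16. PSMB9, an immunoproteasome subunit, fell from 24.2 and 24.8 CPM in Flp-In to 12.9 and 11.1 CPM in AsiSI, and TAP1, a subunit of the peptide transporter, fell from 19.2 and 19.3 CPM in Flp-In to 11 and 9.91 CPM in AsiSI. PSMB9 and TAP1 overlap each other, and 11 of the 16 members had an overlapping gene at 0.5 or more of their counts. Among members with no overlapping gene at 0.1 or more of their count, 1 was called lower. With a fold threshold of 1.5, 3 were lower. The class I gene HLA-B fell, with a log2 fold change of -0.80, and reads of such similar genes can be split between copies. Under siMePCE 5 of the 10 falls were called again, B2M and NLRC5 among them, at -1.26 and -1.43.

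**Figure D3:**
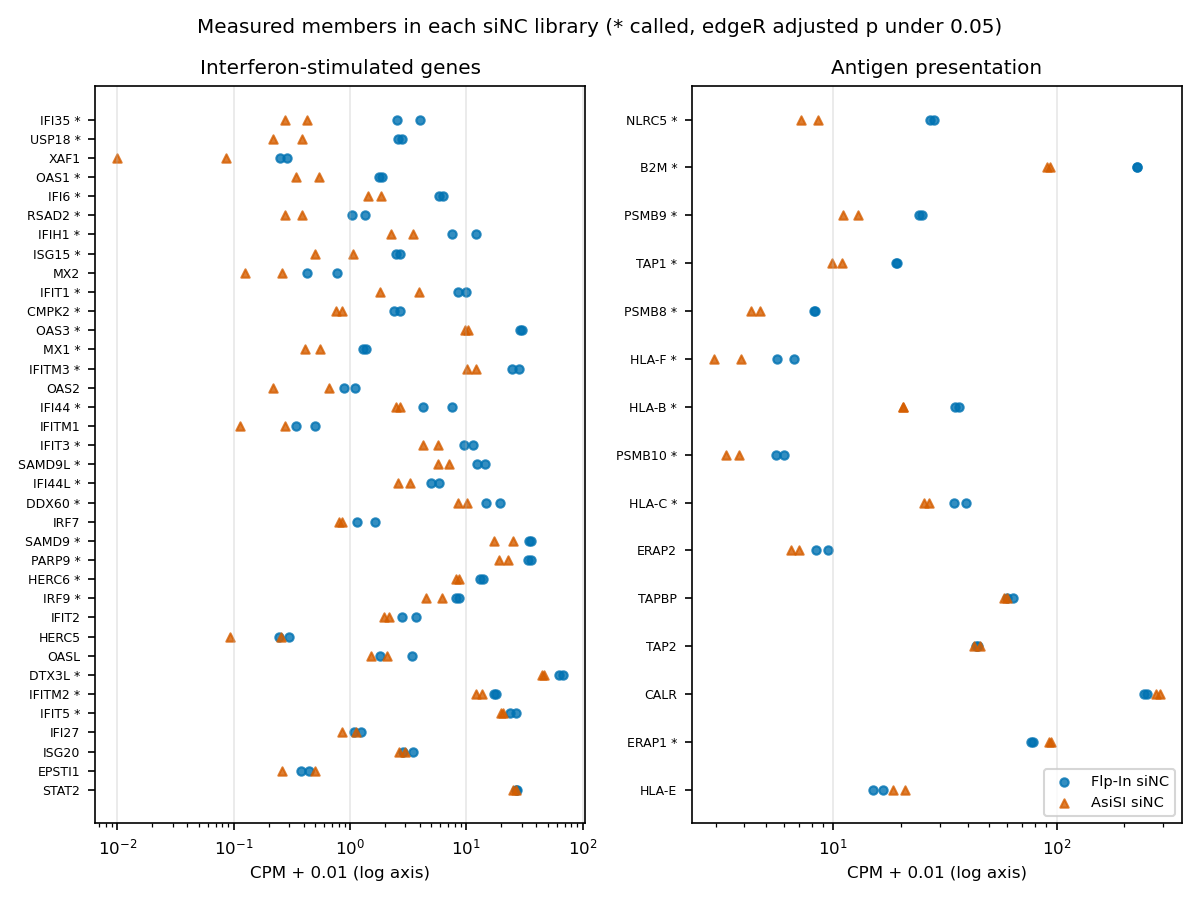
CPM plus 0.01 of measured interferon-stimulated genes (left) and antigen presentation genes (right) in each siNC library, on a log axis, ordered by log2 fold change, with circles for Flp-In, triangles for AsiSI and asterisks on called genes. Of the 36 genes drawn on the left 24 carry an asterisk and lie lower in AsiSI, and of the 15 drawn on the right 9 do and 1 lies higher.

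Inflammatory genes were divided. Of 26 measured NF-kB and inflammatory members 7 were higher (26.9%) and 7 lower (26.9%), against 17.7% and 23.3% of coding genes. Besides CXCL8, the chemokine CCL20 rose from 3.12 and 3.35 CPM in Flp-In to 11.4 and 13.6 CPM in AsiSI, the cytokine IL11 rose from 3.31 and 2.61 CPM in Flp-In to 10.9 and 13.6 CPM in AsiSI and the monocyte chemokine CCL2 rose from 1.77 and 2.35 CPM in Flp-In to 21.4 and 9.85 CPM in AsiSI. Among the falls, NFKB2, the precursor of p52, fell from 38.2 and 38.8 CPM in Flp-In to 14 and 11.6 CPM in AsiSI, and BIRC3, a ubiquitin ligase that restrains noncanonical NF-kB, fell from 25.1 and 26.7 CPM in Flp-In to 9.06 and 6.06 CPM in AsiSI. Groups did not overlap in any of these genes. Of the 7 rises 5 lie in runs at 0.3 or more. Of the 14 called genes 13 had the same sign under siMePCE, and 6 rises and 6 falls were called again there.

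Since 4-OHT binds the estrogen receptor, genes driven by the receptor in breast cells were counted. Here 9 of 23 measured members were higher (39.1%) and 2 lower (8.7%), against 17.7% and 23.3% of coding genes. The list median was 0.11. RARA, the retinoic acid receptor alpha, rose from 41.4 and 41.1 CPM in Flp-In to 71.2 and 77.1 CPM in AsiSI, in a run with a median of 0.64, and was not called under siMePCE (log2 fold change 0.04). KCNK5, a potassium channel, rose from 7.51 and 7.99 CPM in Flp-In to 11.3 and 12.9 CPM in AsiSI. Runs at 0.3 or more held 4 of the 9 rises, and runs at or under -0.3 held 1 of the 2 falls. With run medians taken away the list median was 0.19. Whether 4-OHT caused any of these rises was not tested. GREB1, a classical target, had 23.5 and 29 CPM in Flp-In and 20.9 and 26.2 CPM in AsiSI, with overlapping groups (log2 fold change -0.16, adjusted p = 0.46 in edgeR). Without Flp-In siNC replicate 1, 4 members were higher.

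In cholesterol synthesis 8 of 26 genes were higher (30.8%) and 5 lower (19.2%), against 17.7% and 23.3% of coding genes. HMGCS1, a synthase at the start of the pathway, rose from 147 and 138 CPM in Flp-In to 350.2 and 271 CPM in AsiSI. CYP51A1, the lanosterol demethylase, fell from 103 and 93.4 CPM in Flp-In to 77.4 and 61.3 CPM in AsiSI. The gene that overlaps CYP51A1 had 1.53 times its counts. The AsiSI libraries differed from each other in HMGCS1 by more than the Flp-In libraries did. Without AsiSI siNC replicate 1, 5 members were higher, and without Flp-In siNC replicate 1 or 2 or AsiSI siNC replicate 2, 1, 2 and 1 were lower.

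Cell-type markers were used to check the label. Mesenchymal markers summed to 1244 and 1266 CPM in Flp-In and 1829 and 2026 in AsiSI, most of it vimentin (VIM), with 7 of 10 higher (70%) and 2 lower (1 lower without Flp-In siNC replicate 1 or the second AsiSI siNC library). SNAI2, a repressor of epithelial genes, rose from 16.9 and 17.5 CPM in Flp-In to 73.9 and 83.3 CPM in AsiSI, the mesodermal factor TWIST1 rose from 0.559 and 0.718 CPM in Flp-In to 2.38 and 2.28 CPM in AsiSI, ZEB1 rose from 88.7 and 96.5 CPM in Flp-In to 127 and 138 CPM in AsiSI and the intermediate filament VIM rose from 864 and 878 CPM in Flp-In to 1108 and 1299 CPM in AsiSI. SNAI2 and TWIST1 lie in runs with medians of 0.44 and 0.85. The homeobox gene PRRX1 fell from 17.7 and 16.3 CPM in Flp-In to 10.0 and 10.3 CPM in AsiSI. Epithelial markers summed to 269.7 and 264 CPM in Flp-In and 142 and 150.4 in AsiSI, with 5 of 10 lower and 1 higher (3 lower without Flp-In siNC replicate 2, and none higher without it or AsiSI siNC replicate 1). Keratin 8 (KRT8) held most of that sum and fell from 170.0 and 166 CPM in Flp-In to 75.4 and 78.2 CPM in AsiSI, the tight junction gene CLDN4 fell from 13.2 and 12 CPM in Flp-In to 2.35 and 3.38 CPM in AsiSI, and EPCAM fell from 6.64 and 5.7 CPM in Flp-In to 2.46 and 3.04 CPM in AsiSI. Overlapping genes had 0.778 and 3.55 times the counts of KRT8 and EPCAM. All 7 mesenchymal rises and 3 of the 5 epithelial falls were called again under siMePCE.

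Osteoblast markers were present in both lines, with 4 of 14 higher and 4 lower. SPP1 (osteopontin) rose from 9.3 and 8.88 CPM in Flp-In to 28.2 and 33.6 CPM in AsiSI and COL1A1 (type I collagen) from 71.2 and 76 CPM in Flp-In to 109 and 113 CPM in AsiSI. The bone transcription factor RUNX2 fell from 44.6 and 43.6 CPM in Flp-In to 30.1 and 30.9 CPM in AsiSI. Blood cell markers summed to 7.19 to 8.98 CPM in the 4 libraries, with 1 of 5 measured members higher and 2 lower, and endothelial markers to 21.7 and 23.6 CPM in Flp-In and 28 and 31.3 in AsiSI. HBB, a globin gene, had 140 and 106 counts in Flp-In and 0 and 2 in AsiSI, lower by a ratio of 76.4-fold, with a 95% counting interval of 20.9 to 634, with an overlapping gene at 1.67 times its counts. PTPRC, the leukocyte phosphatase CD45, was higher, at 1.07 and 1.39 CPM in Flp-In and 6.71 and 4.24 CPM in AsiSI, with an overlapping gene at 9.53 times its counts. Of 8 neural markers 3 were higher (1 without AsiSI siNC replicate 2) and 1 lower. The microtubule-binding gene MAP2 rose from 19.4 and 17.7 CPM in Flp-In to 63.4 and 39.8 CPM in AsiSI, and the intermediate filament NES fell from 40.5 and 45.4 CPM in Flp-In to 12.4 and 11.2 CPM in AsiSI. Of 5 chondrocyte markers 1 was higher and 1 lower. The cartilage proteoglycan ACAN rose from 3.54 and 2.78 CPM in Flp-In to 5.46 and 6.73 CPM in AsiSI, and the cartilage factor SOX9 fell, with a log2 fold change of -0.54 and an overlapping gene at 1.08 times its counts.

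Matrix genes were counted by class. Matrix proteases and their inhibitors had 16 of 31 measured members higher (51.6%) and 7 lower, with a median of 0.84 (0.28 under siMePCE). Beside FAP and ADAMTS1, the metalloproteinase inhibitors TIMP1 and TIMP3 rose from 85.9 and 98.6 CPM in Flp-In to 260.0 and 348 CPM in AsiSI and from 24.2 and 23.9 CPM in Flp-In to 77.9 and 62.9 CPM in AsiSI. TFPI2, a Kunitz-type protease inhibitor, fell from 975 and 860 counts in Flp-In to 11 and 12 in AsiSI, lower by a ratio of 94.8-fold, with a 95% counting interval of 63 to 149.9. Overlapping genes had 1.02, 1.29 and 12.1 times the counts of TIMP1, TIMP3 and TFPI2. Glycoproteins and proteoglycans had 15 of 35 higher (42.9%) and 6 lower, with a median of 0.28. Fibronectin (FN1) rose from 126 and 120.0 CPM in Flp-In to 358 and 323 CPM in AsiSI and tenascin C (TNC) from 118 and 121 CPM in Flp-In to 325 and 500.3 CPM in AsiSI. The proteoglycan SPOCK1 rose from 57.5 and 62.1 CPM in Flp-In to 154 and 205 CPM in AsiSI and thrombospondin 1 (THBS1) from 101 and 112 CPM in Flp-In to 290.2 and 216 CPM in AsiSI. In these 4 genes both AsiSI libraries lay above both Flp-In libraries. The basement membrane genes NID1 (nidogen 1) and LAMA5 (laminin alpha 5) fell from 101 and 99.2 CPM in Flp-In to 29.9 and 29.7 CPM in AsiSI and from 131 and 122 CPM in Flp-In to 62.2 and 58.5 CPM in AsiSI.

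Of 33 collagen genes 11 were higher (33.3%) and 7 lower, with a median of 0.21. The higher ones included COL12A1, from 167 and 173 CPM in Flp-In to 310.5 and 276 CPM in AsiSI, COL6A3, from 47.6 and 39.9 CPM in Flp-In to 97.3 and 94.6 CPM in AsiSI, COL8A1, from 21.1 and 18.8 CPM in Flp-In to 42.6 and 43.1 CPM in AsiSI and COL21A1, from 3.54 and 3.4 CPM in Flp-In to 15 and 14.1 CPM in AsiSI. COL6A1 fell from 97.3 and 101 CPM in Flp-In to 51.9 and 56.2 CPM in AsiSI and COL18A1 from 13.6 and 12.1 CPM in Flp-In to 4.31 and 4.79 CPM in AsiSI, both in the chromosome 21 run with a median of -0.55. COL6A1 and COL6A3 encode chains of the same trimer and went in opposite directions. Of 24 integrins 8 were higher (33.3%) and 4 lower (16.7%), with a median of 0.24. ITGB8, which activates TGF-beta, rose from 26.3 and 22.3 CPM in Flp-In to 96.1 and 59.7 CPM in AsiSI in a run with a median of 0.86. The laminin receptor chains ITGA3 and ITGA6 rose by log2 fold changes of 0.60 and 0.72. ITGB4, the epithelial partner of ITGA6, fell from 8 and 7.39 CPM in Flp-In to 1.73 and 1.67 CPM in AsiSI. Overlapping genes had at least 0.5 times the counts of TNC, THBS1, LAMA5, COL8A1, COL18A1, ITGA6 and ITGB4.

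Growth factors and their receptors were also counted. Of 39 ligands 17 were higher (43.6%) and 8 lower, with a median of 0.36, and 13 rises and 7 falls were called again under siMePCE. KITLG, the ligand of KIT, rose from 31.5 and 30.0 CPM in Flp-In to 112 and 96.8 CPM in AsiSI and FGF5 rose from 4.08 and 4.83 CPM in Flp-In to 25.3 and 25.4 CPM in AsiSI. HGF, the ligand of MET, rose from 0.233 and 0.431 CPM in Flp-In to 8.08 and 6.31 CPM in AsiSI. The neuregulins NRG1 and NRG2, ligands of ERBB receptors, fell from 116 and 115 CPM in Flp-In to 40.5 and 41.2 CPM in AsiSI and from 17.1 and 18.1 CPM in Flp-In to 4.52 and 5.21 CPM in AsiSI, and GAS6, the ligand of AXL, fell from 103 and 104 CPM in Flp-In to 45 and 46.9 CPM in AsiSI. Among these ligands no AsiSI library came within the Flp-In range. Of 50 receptors 16 were higher (32%) and 10 lower. The ephrin receptor EPHA4 rose from 1.91 and 1.63 CPM in Flp-In to 16.1 and 13.4 CPM in AsiSI and the collagen receptor DDR2 from 12.1 and 13.3 CPM in Flp-In to 30.6 and 26.8 CPM in AsiSI. ROR1, a receptor of Wnt ligands, fell from 28.8 and 29.4 CPM in Flp-In to 9.9 and 9.73 CPM in AsiSI and EPHB4 from 30.5 and 30.7 CPM in Flp-In to 12.8 and 14.3 CPM in AsiSI. Without Flp-In siNC replicate 1, 10 receptors were higher. Overlapping genes had 0.624, 1.14 and 0.516 times the counts of FGF5, HGF and EPHB4.

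In the TGF-beta and BMP pathway 10 of 40 measured members were higher (25%) and 14 lower (35%), against 17.7% and 23.3% of coding genes. Of these, 8 rises and 11 falls were called again under siMePCE. Besides BMP4, the ligand BMP7 fell from 14.4 and 15 CPM in Flp-In to 4.9 and 5.27 CPM in AsiSI. The receptors BMPR1B and ACVR2B fell from 59 and 61.8 CPM in Flp-In to 28.6 and 34.1 CPM in AsiSI and from 37.8 and 33.7 CPM in Flp-In to 14.9 and 14.3 CPM in AsiSI, and the coreceptor endoglin (ENG) fell, with a log2 fold change of -1.30, with an overlapping gene at 1.2 times its counts. LTBP1, which holds latent TGF-beta in the matrix, rose from 16.3 and 15.9 CPM in Flp-In to 38.9 and 38.7 CPM in AsiSI. In the Wnt pathway 17 of 46 measured members were lower (37%) and 5 higher (10.9%), with a median of -0.08. Of the 17 falls 15 were called again under siMePCE. The secreted inhibitor SFRP1 fell from 24.4 and 24.1 CPM in Flp-In to 7.04 and 8.06 CPM in AsiSI, the receptor FZD3 fell from 44.1 and 41.5 CPM in Flp-In to 17.1 and 18.6 CPM in AsiSI and the nuclear factor TCF7L1 fell from 26.1 and 26 CPM in Flp-In to 11.3 and 14.1 CPM in AsiSI. SFRP1 and FZD3 lie in runs of chromosome 8 with medians of -0.53 and -0.77. DKK2, another secreted inhibitor, rose from 2.1 and 3.52 CPM in Flp-In to 14.9 and 13.5 CPM in AsiSI. Without Flp-In siNC replicate 1 or 2, 11 and 9 members were lower, and without AsiSI siNC replicate 2, 3 were higher. In the Notch pathway 2 of 14 measured members were higher (14.3%) and 3 lower (21.4%), near the 17.7% and 23.3% of coding genes. That is 35.7% called. The ligand JAG1 rose from 19.9 and 22.3 CPM in Flp-In to 34.3 and 37 CPM in AsiSI, the glycosyltransferase LFNG rose from 30.4 and 28.5 CPM in Flp-In to 91.4 and 81.8 CPM in AsiSI in a run with a median of 0.69, and the target HES1 fell from 12.1 and 10.9 CPM in Flp-In to 5.96 and 6.43 CPM in AsiSI, with an overlapping gene at 0.833 times its counts.

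Homeobox clusters, which hold positional identity and are set apart by Polycomb silencing, differed by cluster. In HOXC, 7 of 8 measured genes were lower and none higher, with a median of -1.04 in a run whose median was -0.13. HOXC11 fell from 9.11 and 9.55 CPM in Flp-In to 1.73 and 1.64 CPM in AsiSI, HOXC6 from 48 and 52.2 CPM in Flp-In to 28.6 and 27.9 CPM in AsiSI and HOXC13 from 14.3 and 16.7 CPM in Flp-In to 7.67 and 7.83 CPM in AsiSI, and 6 of the 7 falls were called again under siMePCE. In HOXD, 3 of 7 were lower, with HOXD11 at 118 and 136 counts in Flp-In and 6 and 2 in AsiSI beside HOXD10, which overlaps it and had 5 times its counts. HOXB had 2 of 9 higher and 3 lower (1 and 1 without Flp-In siNC replicate 1, and 1 higher without AsiSI siNC replicate 2), HOXB2 going from 18.2 and 21.2 CPM in Flp-In to 7.15 and 6.43 CPM in AsiSI. HOXA had 3 of 11 higher and 2 lower, and all 11 lie in a chromosome 7 run with a median of 0.86. Of these HOXA calls, none was higher without Flp-In siNC replicate 1 and 1 without AsiSI siNC replicate 2, and none was lower without Flp-In siNC replicate 2 and 1 without any other single siNC library. Overlapping genes had at least 0.5 times the counts of 7 of the 8 HOXC genes, HOXC13 being the exception, so these genes are not independent of each other.

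Among cancer-testis antigens, 35 of 59 listed genes passed the count filter, with 5 higher (14.3%) and 4 lower (11.4%; 2 without Flp-In siNC replicate 1), against 17.7% and 23.3% of coding genes. SPANXD rose from 0.0466 and 0.0957 CPM in Flp-In to 2.29 and 2.55 CPM in AsiSI, a ratio of 34.2-fold, with a 95% counting interval of 15.5 to 94.2, PAGE2 rose from 6.53 and 7.97 CPM in Flp-In to 14.1 and 15.3 CPM in AsiSI and MAGEA3 fell from 2.75 and 3.45 CPM in Flp-In to 0.875 and 0.97 CPM in AsiSI. These families hold near-identical copies, so single members are uncertain. Of 28 measured imprinted genes 13 were higher (46.4%) and 4 lower (2 lower without either Flp-In siNC library or AsiSI siNC replicate 2), and 9 of the 13 lie in runs at 0.3 or more. GRB10, an adaptor that restrains insulin signalling, rose from 45.4 and 47.4 CPM in Flp-In to 97.2 and 118 CPM in AsiSI in a run with a median of 0.04, MAGEL2 rose from 0.746 and 0.622 CPM in Flp-In to 4.25 and 4.07 CPM in AsiSI, PLAGL1 rose from 73.7 and 70.2 CPM in Flp-In to 113 and 106 CPM in AsiSI and SGCE fell from 99.1 and 87.9 CPM in Flp-In to 60.1 and 49.7 CPM in AsiSI. Of 20 clustered protocadherins 8 were higher and none lower, led by PCDHB8, from 0.979 and 0.574 CPM in Flp-In to 11.2 and 10.6 CPM in AsiSI, but all 20 overlap a gene with at least 0.5 times their counts.

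Stress and metabolic lists were mixed, and the shares of coding genes to set beside them are 17.7% higher and 23.3% lower. Of 19 NRF2 targets 7 were higher and 5 lower, with FTL, the ferritin light chain, going from 387 and 441 CPM in Flp-In to 687 and 859.6 CPM in AsiSI, and HMOX1, heme oxygenase, from 53.1 and 63.9 CPM in Flp-In to 18.9 and 31.4 CPM in AsiSI. All 3 measured metallothioneins were lower, MT1E from 151 and 149 CPM in Flp-In to 89.1 and 97.7 CPM in AsiSI, MT1X from 22.2 and 24.6 CPM in Flp-In to 12.3 and 12.9 CPM in AsiSI and MT2A from 452 and 383 CPM in Flp-In to 335 and 339.8 CPM in AsiSI. They lie on chromosome 16 in a run with a median of -0.44, and MT2A was called higher in AsiSI under siMePCE (log2 fold change 0.37, edgeR adjusted p = 0.00449). Under siNC MT2A was not called without Flp-In siNC replicate 1 (adjusted p = 0.355) or either AsiSI siNC library (0.0814 and 0.0666). Of 15 heat shock chaperones 2 were higher and 1 lower (20% called; 5 higher without AsiSI siNC replicate 1, and 2 lower without Flp-In siNC replicate 1 or the second AsiSI siNC library), the small chaperone CRYAB rising from 7.16 and 7.92 CPM in Flp-In to 22.6 and 17.9 CPM in AsiSI, the cytosolic chaperone HSP90AB1 from 1070 and 1150 CPM in Flp-In to 1479 and 1655 CPM in AsiSI, and another small chaperone, HSPB1, falling from 203 and 207 CPM in Flp-In to 132 and 164 CPM in AsiSI. Of 22 genes of glycolysis and hypoxia 4 were higher and 1 lower (2 without Flp-In siNC replicate 2), BNIP3, a mitophagy receptor, going from 16.2 and 16.6 CPM in Flp-In to 33.9 and 30.2 CPM in AsiSI and PFKFB4, a regulator of glycolysis, from 16.8 and 17.1 CPM in Flp-In to 6.13 and 6.43 CPM in AsiSI. Ribosome biogenesis had 8 of 28 higher (13 with TMM on coding genes) and 5 lower (3 without Flp-In siNC replicate 1), but under siMePCE 2 of the 8 rises were called again, 16 members were lower and the median was -0.33, against 0.14 under siNC. All 5 falls lie in runs at or under -0.3, and 4 of the 8 rises lie in runs at 0.3 or more. With run medians taken away the list median under siNC was 0.13. Nucleolin (NCL) rose from 278 and 272 CPM in Flp-In to 403 and 399 CPM in AsiSI. The polymerase I subunit POLR1C rose from 95.1 and 100.4 CPM in Flp-In to 156 and 171 CPM in AsiSI. The nucleolar chaperone NOLC1 fell from 128 and 121 CPM in Flp-In to 73.1 and 78.7 CPM in AsiSI. Of 17 measured G1 cyclins, kinases and inhibitors 2 were higher (1 without either Flp-In siNC library) and 6 lower, with 3 lower without Flp-In siNC replicate 1 or the second AsiSI siNC library. Of 21 genes of 7SK and P-TEFb 4 were higher (7 with TMM on coding genes, 2 without Flp-In siNC replicate 1) and 5 lower. Without Flp-In siNC replicate 1 or 2, 2 were lower, and without AsiSI siNC replicate 1 or 2, 3 and 1 were. Among the 4 rises, the elongation factor ELL2 went from 72.9 and 68.7 CPM in Flp-In to 249 and 197 CPM in AsiSI. NELFE, a subunit of the pausing factor NELF, rose from 20.9 and 22.5 CPM in Flp-In to 31.3 and 36.3 CPM in AsiSI. Overlapping genes had at least 0.5 times the counts of FTL, MT1X, HSPB1, POLR1C and ELL2.

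**Figure D4:**
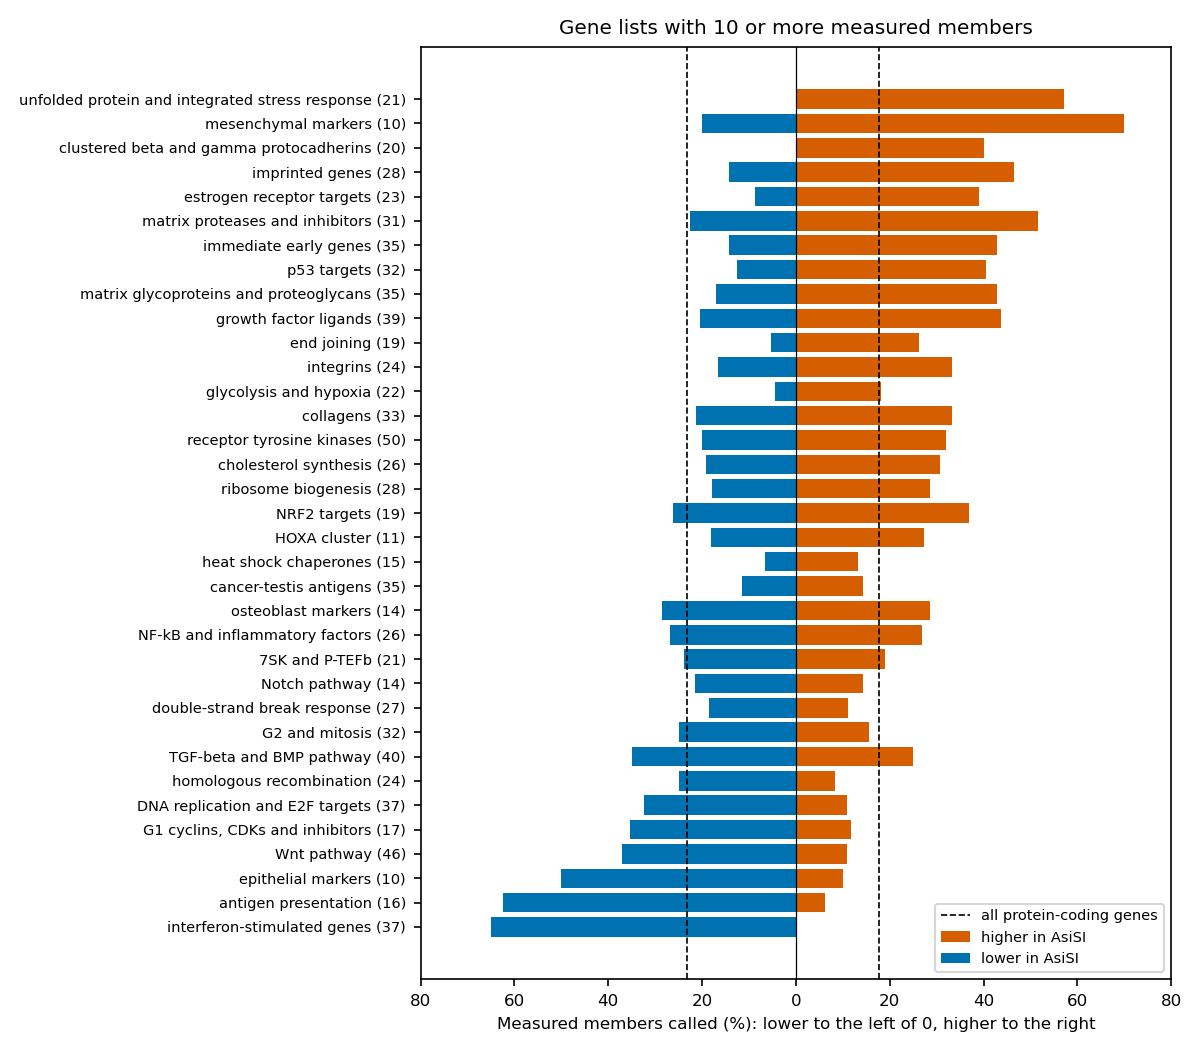
Share of measured members called higher (right) or lower (left) in AsiSI for each gene list with 10 or more measured members, the number measured in brackets, with dashed lines at the 17.7% higher and 23.3% lower of all protein-coding genes. Interferon-stimulated genes (64.9% lower) and the unfolded protein and integrated stress response (57.1% higher) lie past those lines, as do mesenchymal markers (70% higher).

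Genes whose start lies next to an AsiSI recognition sequence were described last, since 4-OHT brings AsiSI to such sites. The sequence GCGATCGC, which reads the same on both strands, was searched in windows from 250 bases before to 50 after each gene's start (RefSeq, GRCh38.p14). It was found in 73 of 35116 windows (0.208%), which belong to 70 gene symbols, 59 of them measured. The sites of 6 genes follow because these genes are well expressed and 3 were higher, 2 lower and 1 not called, with the recognition sequence in capitals and 11 bases on each side, 5′ to 3′ on the gene's strand.
COL12A1 (chr6:75206224-75206253, minus strand): ctgctactacgGCGATCGCcacctcacgcc
NFIB (chr9:14322421-14322450, minus strand): gcggggaagggGCGATCGCgcgaccccggg
NR3C1 (chr5:143405473-143405502, minus strand): ttaggctacccGCGATCGCgaacctttgcc
TRIM37 (chr17:59106924-59106953, minus strand): gcgggaactagGCGATCGCtccacgctcct
IST1 (chr16:71895422-71895451, plus strand): tcccggcagcgGCGATCGCgcagccaatcc
USP22 (chr17:21042976-21043005, minus strand): gcctcccctcgGCGATCGCgcagccccatc

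Of the 59 measured genes 11 were higher (18.6%) and 19 lower (32.2%), against 18% and 20.7% of the 16440 genes with a window, of which 38.7% were called. Their median log2 fold change was -0.09, against -0.02. Of the falls, IST1, ZNF19, RNF166, LAMB1, VPS50, ZNF3, UBE2G2 and NDRG2 lie in runs at or under -0.3. Of the rises, NFIB, SLC8A1 and MEF2C-AS2 lie in runs at 0.3 or more. With a fold threshold of 1.5, 4 were higher and 3 lower. Among those with no overlapping gene at 0.1 or more of their count, 4 were higher and 8 lower, fewer genes being tested there. The 2 groups did not overlap at any of the 6 genes shown, USP22 included, which was not called, so this separation is only a description. COL12A1, a fibril-associated collagen, and NFIB, a transcription factor that went from 148 and 139 CPM in Flp-In to 284 and 248 CPM in AsiSI, were higher, as was NR3C1, the glucocorticoid receptor, from 138 and 132 CPM in Flp-In to 236 and 216 CPM in AsiSI. NFIB lies in the run of chromosome 9 with a median of 0.74. TRIM37, a ubiquitin ligase of centrosomes, fell from 179.6 and 169.7 CPM in Flp-In to 114 and 105 CPM in AsiSI, and IST1, a factor of membrane scission, fell from 187 and 187 CPM in Flp-In to 129 and 132 CPM in AsiSI in a run of chromosome 16 with a median of -0.37. Overlapping genes had 0.55, 0.745 and 0.574 times the counts of NR3C1, TRIM37 and IST1. USP22, a deubiquitinase of the SAGA complex and the most highly expressed of these genes by CPM, had 318 and 318 CPM in Flp-In and 279 and 297 CPM in AsiSI, with a log2 fold change of -0.14 (edgeR adjusted p = 0.199) and an overlapping gene at 1.71 times its counts.

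The cell cycle gene CCNB1 was higher, from 221 and 224 CPM in Flp-In to 276 and 265 CPM in AsiSI (edgeR adjusted p = 0.0388), but not without Flp-In siNC replicate 1 or 2 or AsiSI siNC replicate 1 (adjusted p = 0.115, 0.0813 and 0.153). PALM2AKAP2, an anchoring protein of kinases, rose by a log2 fold change of 0.41, whereas the actin capping gene CAPZB, the disulfide oxidase ERO1A and the transcription factor KLF7 had log2 fold changes of 0.02, 0.16 and 0.08 and were not called. Under siMePCE, 4 of the 11 rises and 12 of the 19 falls were called again and 1 had the opposite direction. A match in the window does not show that AsiSI cut there, and sites outside the windows were not searched.

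The siMePCE libraries gave a view of the same line difference in cells that the siNC comparison did not use, although the 2 contrasts share the fit's estimate of spread. In them 13661 genes were called, 31.5% of those tested (15.6% higher and 15.9% lower). Of the 12777 genes called under siNC, 91.2% had the same sign there, 8066 (63.1%) were called in the same direction and 133 in the opposite direction. Of the 625 genes with a log2 fold change of at least 3, 372 were called again and none in the opposite direction. MAGEC1 had a log2 fold change of 10.58 under siMePCE, SERPINB7 of 5.18, CFAP58 of 4.14 and PLAAT5 of -6.59. Others shrank: FAP had 3.34, HOXD10 -3.44, CYP27A1 -3.67 and FAT3 0.82. The difference between the siRNAs was itself called for 1808 of 43321 genes (4.17%; 2.51% upward and 1.66% downward), and for 1205 of the 12777 genes called under siNC.

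**Figure D5:**
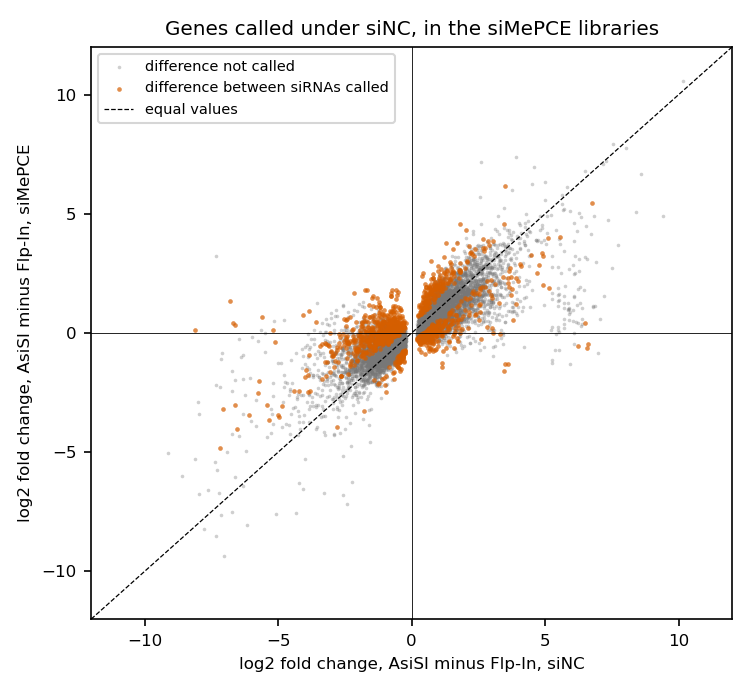
Log2 fold change (AsiSI minus Flp-In) in the siNC libraries against that in the siMePCE libraries for the 12777 genes called under siNC, with the 1205 whose difference between siRNAs was called in colour and a dashed line of equal values. Points lie in the quadrants of equal sign for 91.2% of the genes.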

How the data were processed

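The counts were deposited by the authors as a table of raw counts per gene for 8 libraries of total RNA, each made with a directional kit after ribosomal RNA removal, per the labels' protocols. Per the submitters' processing notes, the reads were handled with featureCounts, STAR, SAMtools, FastQC and Trim Galore on hg19, with no versions used here. Strand and overlap settings are not given in the sources used here. In all 80311 rows the listed length equals end minus start plus 1. Symbols came from the reference table for 74.3% of rows, which hold 94.5% of counts, and gene types from GENCODE 29. All 8 columns were used.

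Genes were kept with filterByExpr (43321), given TMM factors and tested by edgeR 4.0.16 (R 4.3.3) with quasi-likelihood F tests in a model of 4 group means across all 8 libraries, leaving 4 residual degrees of freedom. The common biological coefficient of variation was 0.121. The script was tested on simulated data. There 8.97% of the calls were false, a share above the adjusted p threshold of 0.05. Genes changed by 1.5-fold, 2-fold and 4-fold numbered 82, 54 and 64. Of these, 41.5%, 63% and 100% were recovered. The changed genes were a far smaller share of the 43321 than the 29.5% called in the data. These rates therefore need not hold for the comparison itself. A standard error is the absolute log2 fold change over the square root of its F. Ratios of genes with few counts have exact binomial intervals, which cover counting error only.

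Genes and the 45 lists were chosen with earlier results of these data known. Named were MEPCE, RN7SK and ESR1; the 12 largest rises and falls among called coding genes with a mean of 5 CPM, groups apart and no overlapping gene at 0.5 of their counts; 8 more each way at 5 CPM in every siNC library; up to 4 noncoding genes each way; up to 6 called members per list by adjusted p; and 12 genes with the recognition sequence by CPM. Some of these were left out, among them 5 whose call a single left-out library ended and 7 with an overlapping gene of several times their counts. Some results are not reported here. GREB1, which was not called, is a member of its list, and SYNE1 was chosen after its values were seen.

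Alternatives were other scalings and count filters, DESeq2 1.42.0, limma-voom (limma 3.58.1), only the 4 siNC libraries, a replicate block, a fold threshold of 1.5, leaving out each siNC library, and only genes with no overlapping gene at 0.1 or more of their count.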

Additional observations from a re-analysis of the deposited data

Results flagged for a closer look

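The difference between the lines was compared between siMePCE and siNC by an interaction contrast in edgeR, and 1808 genes were called. Values here are log2 differences, the line contrast under siMePCE minus that under siNC, for genes named above. Both contrasts enter each value, so noise in the siNC libraries moves it too.

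Among the largest rises in AsiSI, the line difference was smaller under siMePCE for ADAMTS1 (-1.92), FAT3 (-1.61), FAP (-1.54), ADAMTSL1 (-1.22), CRACDL (-1.07), PAPPA2 (-1.06), LINC02663 (-1.70) and LINC01029 (-1.30). It was larger for CXCL8 (2.65) and ESR1 (1.15). Among the deepest falls it was smaller for ABCG1 (2.87), HOXD10 (2.66), TFPI2 (2.51), ENSG00000260126 (2.37), MIR9-1HG (2.29), RAC2 (1.80), CYP27A1 (1.68), ENSG00000308604 (1.42), PKP2 (0.83) and ZNF283 (0.67), and larger for ATP6V0A1 (-1.15). ABCG1 and MIR9-1HG were not called under siMePCE, with log2 fold changes between the lines of -0.47 and -0.44 (edgeR adjusted p = 0.161 and 0.0563).

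Among stress, repair and signalling genes, the difference was negative for CHAC1 (-1.38), KLF6 (-1.22), FOSL2 (-0.84), RARA (-0.80), POLR1C (-0.48), FGF5 (-0.88), KITLG (-0.60) and JAG1 (-0.98). It was positive for RAD51B (0.74), IFI35 (2.03), MT2A (0.68), PFKFB4 (0.72), CRYAB (0.83), KLF7 (0.54), NRG1 (0.64), ACVR2B (0.92), DKK2 (0.89) and HES1 (1.28).

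Among matrix and marker genes it was positive for COL21A1 (0.92), COL8A1 (0.89), COL6A3 (0.80), COL1A1 (1.02), SPP1 (0.89), LAMA5 (0.62), ITGB4 (1.87), CLDN4 (1.15) and EPCAM (1.17), and negative for SPOCK1 (-1.03).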

How the results depend on the processing

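The 12777 genes called under siNC became between 12165 (DESeq2) and 14157 (replicate block) under other scalings, count filters, DESeq2, limma-voom, only the 4 siNC libraries and the block, and between 92.4% and 99.9% of the main calls kept their direction and call there. TMM on protein-coding genes moved the median of all genes by 0.0524 on the log2 scale and gave 13060 calls, 7151 higher and 5909 lower. A fold threshold of 1.5 left 4052 genes (2165 higher and 1887 lower), and keeping only genes with no overlapping gene at 0.1 or more of their count left 3942 (1960 and 1982), fewer genes being tested there. Leaving out each siNC library gave 8598 to 10199 calls, 4500 to 5265 higher and 4098 to 5218 lower, with 65.6% to 75% of the main calls remaining. The group that lost a library then rested on 1, which is assumed to vary like the others.

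Under siMePCE, 13661 calls became 4222 with the fold threshold, 4269 without overlapping genes and 15038 with the replicate block. The difference between siRNAs, 1808 calls, gave 2912 with the block, 184 with the fold threshold, 626 without overlapping genes and 617 to 1684 without 1 siNC library (617 and 959 without Flp-In siNC replicate 1 and 2, 1192 without AsiSI siNC replicate 2). The main fit did not pair libraries by replicate number, since no label ties them. Correlations of their deviations were weak but all positive, from 0.0427 to 0.155. Whether libraries of the same number share an effect is therefore not settled.

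No named gene changed direction. Of those called, 49 lost the call at the fold threshold, and MEPCE, MT2A, CCNB1 and RAD51B lost it without single libraries, as given above. ERO1A gained a call with TMM on coding genes (adjusted p = 0.0354) and without AsiSI siNC replicate 2 (0.0442). List medians near 0 for the double-strand break response, NF-kB, HOXA and heat shock lists changed sign with TMM on coding genes. Without overlapping genes 10 of the 24 interferon-stimulated falls and 0 of the 7 HOXC falls were left to test and called. Of the 10 antigen presentation falls 1 was left, and of the 4 integrin and 4 imprinted falls 0 were. With 2 libraries a group, and many genes under 1 CPM, differences at the lowest levels were often not detectable at this depth.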
